A study of Homo sapiens with 10 samples.

Results

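The kinetochore and spindle checkpoint genes examined were BUB1, BUB1B, TTK, AURKB, PLK1, MAD2L1, NDC80, NUF2, SPC24 and SPC25. They were chosen by name for their function, because the study dealt with regulatory regions near BUB1B and SPC24. All 10 were matched among the 20098 protein-coding genes on chromosomes 1 to 22 and X of GENCODE release 44 on GRCh37 (hg19), the build of the peak lists. The data came from MDAMB231, an established human breast cancer line that lacks estrogen and progesterone receptors and HER2 amplification (triple-negative). The cells were untreated and were grown in DMEM with 5% FBS. ChIP-seq was performed for H3K4me3, H3K27Ac and H3K4me1 on 2 samples each, with 1 input sample, and FAIRE-seq on 2 samples crosslinked with 1% formaldehyde, with 1 input sample. The authors combined the 2 samples of each assay into 1 deposited list of peaks, so no value has a replicate error and no test between genes was made.

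The kinetochore is the protein structure that joins a chromosome to the microtubules of the mitotic spindle. Until every chromosome is attached, the spindle checkpoint holds back the anaphase-promoting complex, and many tumor cells depend on this brake because they carry abnormal chromosome numbers. The genes of this machinery are transcribed mostly late in the cell cycle, and their promoters are known for a pair of elements, the CHR (cell cycle genes homology region), through which the DREAM and MuvB complexes act, and CCAAT boxes, which are bound by NF-Y.

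The promoter sequences are shown first, because the H3K4me3 and H3K27Ac promoter peaks of all 10 genes spanned this part. Each runs from 130 bases before the canonical start site to 30 bases from it onward, 5′ to 3′ in the direction of the gene, on GRCh37. Capitals mark matches to the CHR motif (TTTGAA or TTCGAA) and to CCAAT, on either strand, so that a match on the other strand reads TTCAAA or ATTGG. The 6 shown cover the arrangements found: CCAAT upstream of a CHR (AURKB, PLK1, TTK and SPC25), a CHR alone (BUB1B) and CCAAT alone (SPC24).
AURKB (chr17:8113864-8114023, minus strand): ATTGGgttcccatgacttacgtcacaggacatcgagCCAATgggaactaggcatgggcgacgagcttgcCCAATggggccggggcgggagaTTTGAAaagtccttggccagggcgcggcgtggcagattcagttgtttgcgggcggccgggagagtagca
PLK1 (chr16:23690080-23690239, plus strand): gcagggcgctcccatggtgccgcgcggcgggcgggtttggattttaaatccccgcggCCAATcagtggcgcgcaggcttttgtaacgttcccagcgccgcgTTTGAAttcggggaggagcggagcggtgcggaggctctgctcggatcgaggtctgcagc
TTK (chr6:80714236-80714395, plus strand): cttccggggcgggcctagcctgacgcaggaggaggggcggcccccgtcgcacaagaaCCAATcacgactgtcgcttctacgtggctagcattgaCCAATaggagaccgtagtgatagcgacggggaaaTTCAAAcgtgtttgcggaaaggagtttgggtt
SPC25 (chr2:169746911-169747070, minus strand): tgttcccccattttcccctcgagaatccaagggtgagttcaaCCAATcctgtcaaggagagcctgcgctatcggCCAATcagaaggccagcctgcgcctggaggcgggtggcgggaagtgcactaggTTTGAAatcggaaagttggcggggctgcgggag
BUB1B (chr15:40453140-40453299, plus strand): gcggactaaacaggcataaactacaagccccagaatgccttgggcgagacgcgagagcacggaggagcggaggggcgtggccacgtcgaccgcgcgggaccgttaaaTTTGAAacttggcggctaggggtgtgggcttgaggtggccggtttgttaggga
SPC24 (chr19:11266429-11266588, minus strand): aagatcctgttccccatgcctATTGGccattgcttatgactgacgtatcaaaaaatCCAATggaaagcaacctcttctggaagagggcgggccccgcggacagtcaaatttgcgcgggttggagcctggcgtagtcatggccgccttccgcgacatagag

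In the window from 250 bases before to 50 bases after the canonical start, 9 of the 10 promoters held a CHR match, compared with 12.9% of all coding promoters. SPC24 was the gene without one. Among the 12317 coding genes that had both an H3K4me3 and an H3K27Ac promoter peak, the share with a CHR match was 10.3%. CCAAT was found in 7 of the 10 promoters and in 35.9% of all coding promoters, and CHR together with CCAAT in 6 of 10 and in 5.43%. The CHR count therefore stood further from the background than the CCAAT count. The GC content of the 10 windows ran from 53.3% to 66.3% with a median of 60.8%, compared with a median of 63.7% over all coding promoters and 66.3% over those of genes with both marks.

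In 9 genes a CHR match began within 50 bases of the start site, compared with 3.61% of all coding promoters. In AURKB the match began 39 bases upstream, in PLK1 29 bases and in BUB1B 23 bases upstream. In TTK, NDC80 and SPC25 a match spanned the start site itself. In BUB1, NUF2 and MAD2L1 it began 1, 16 and 24 bases downstream. NDC80 had 2 adjoining matches, from 3 bases upstream to 8 bases downstream, and SPC25 had a further match 247 bases upstream. In a window from 100 bases before to 100 bases after the start, a CHR match was found in 9 of the 10 genes. The shares were 6.80% of all coding promoters and 29 (58.0%) of 50 other kinetochore and mitosis genes. Within 50 bases of the start, 24 (48.0%) of these 50 genes had a match.

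In the 6 genes that had both, the CCAAT matches lay upstream of the CHR match nearest the start. AURKB had 3, at 130, 94 and 61 bases before the start. BUB1, TTK and SPC25 had 2 each, all within 88 bases of the start, and PLK1 had 1 at 73 bases. SPC24 had 3, at 207, 109 and 74 bases, and MAD2L1 had 1 distant match at 229 bases. BUB1B, NDC80 and NUF2 had none in this window. None of the 10 promoters held the exact E2F words searched (TTTCCCGC, TTTCGCGC or TTTGGCGC), the AP-1 motif (TGANTCA) or TATAAA. These were found in 3.70%, 5.43% and 9.80% of all coding promoters, so 0 of 10 is near those shares. Other forms of an E2F site were not searched, so these promoters may hold some. A match is a string of letters and does not show that a factor was bound.

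**Figure D1:**
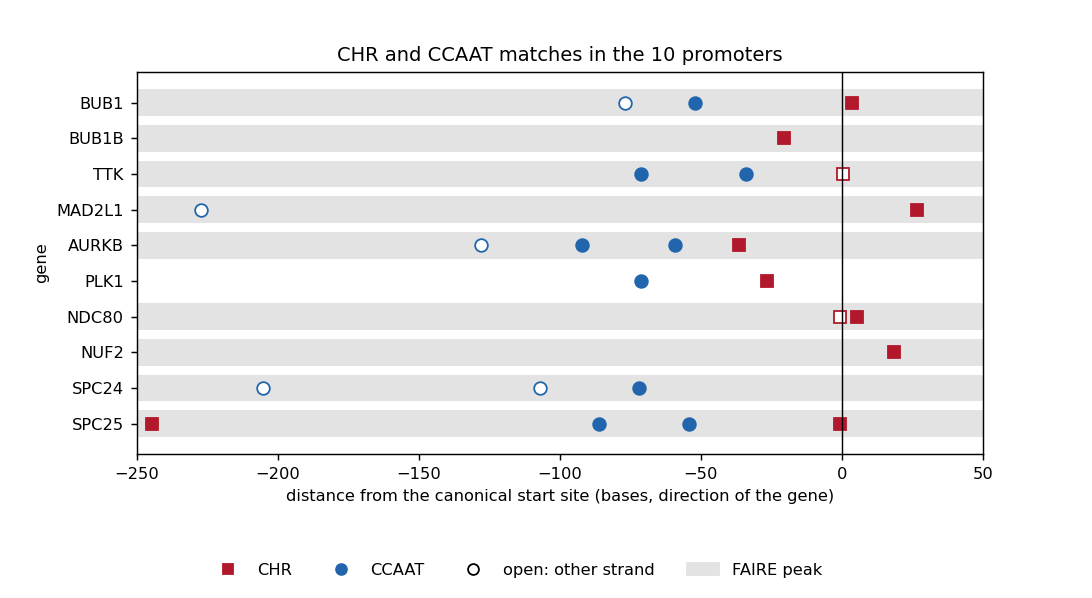
Positions of CHR (squares) and CCAAT (circles) matches in the 10 promoters, in bases from the canonical start site in the direction of the gene, with open symbols for the other strand and gray bars for the FAIRE promoter peak. A CHR match begins within 50 bases of the start in 9 genes, compared with 3.61% of all coding promoters. CCAAT matches lie upstream of this CHR match in the 6 genes with both, and PLK1 has no FAIRE bar.

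A promoter peak was defined as a peak that shared at least 1 base with any annotated start site of the gene widened by 1 kb on each side. H3K4me3, the mark of active or poised promoters, was found at 10 of the 10 genes, compared with 67.3% of all coding genes. H3K27Ac, a mark of active promoters and enhancers, was also found at 10 of 10, compared with 63.5%. FAIRE, which recovers nucleosome-depleted DNA, gave a peak at 9 of 10, compared with 39.3%. H3K4me1, the mark of enhancers and of the edges of promoters, was found at 5 of 10, compared with 4027 of all coding genes (20%). BUB1, BUB1B, NUF2 and MAD2L1 had promoter peaks in all 4 lists, compared with 13.1% of all coding genes. The share was 21.3% of coding genes with both H3K4me3 and H3K27Ac, and 32.0% (16) of the 50 other kinetochore and mitosis genes. The 10 genes thus had both marks of active promoters and, with the exception of PLK1, a FAIRE peak. The FAIRE and H3K4me1 counts depended on the threshold. A FAIRE promoter peak at or above the list's median height was found at 5 genes, compared with 24.4% of all coding genes. An H3K4me1 promoter peak with a MACS p-value at or under 1e-10 was found at 2, compared with 11.2%, and one with a start site of the gene inside it also at 2, compared with 13.6%.

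Because H3K4me3 and H3K27Ac were present throughout, the closer background for the other lists is the coding genes with both marks. Of these, 59.6% had a FAIRE promoter peak and 28.8% an H3K4me1 promoter peak. With the stricter thresholds these shares were 37.3% and 15.7%, and with a start site inside the H3K4me1 peak 19.2%, so the 2 genes with H3K4me1 were near the background in both cases. A list of 50 other kinetochore and mitosis genes had H3K4me3 and H3K27Ac promoter peaks at all 50, FAIRE peaks at 41 (82.0%) and H3K4me1 peaks at 20 (40.0%). In the same list the CHR was found in 29 promoters (58.0%), CCAAT in 34 (68.0%) and both together in 21 (42.0%). CDC20, the activator that the checkpoint holds in check, had an H3K27Ac promoter score of 2917 and a FAIRE height of 79.6. KIF2C, a microtubule depolymerase, had 1406 and 84.0, and TPX2, a spindle assembly factor, had 3100 and 144. UBE2C, an enzyme of the anaphase-promoting complex pathway, had 598 and 190. BIRC5, a partner of AURKB, had an H3K27Ac score of 1094 and, like PLK1, no FAIRE promoter peak.

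**Figure D2:**
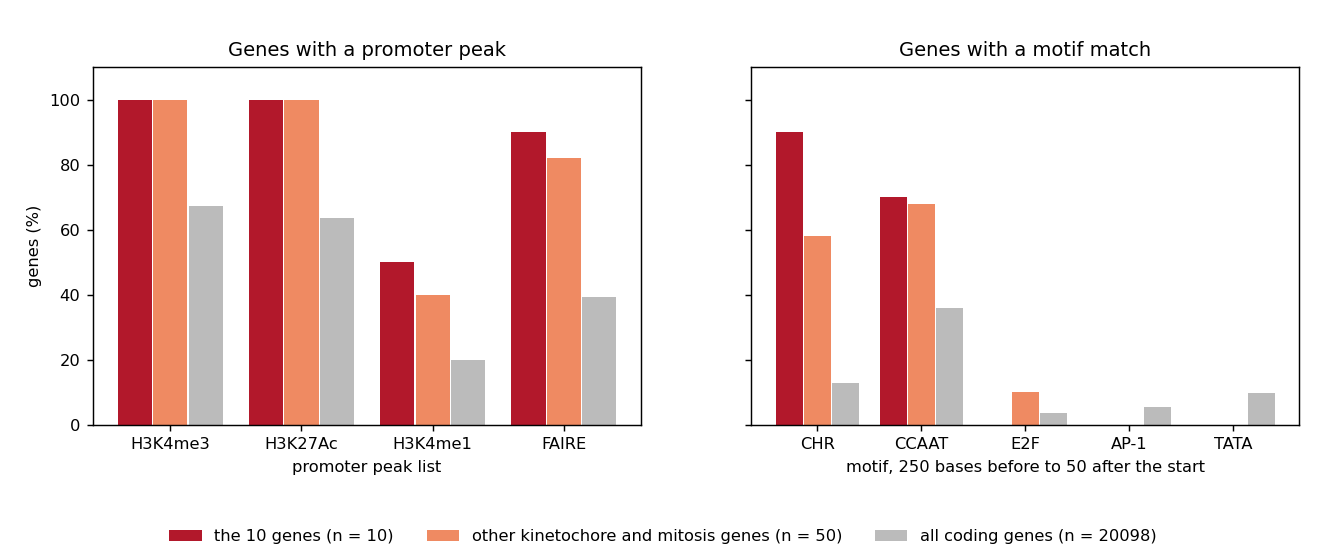
Percentage of genes with a promoter peak in each list (left) and with a motif match in the promoter sequence (right), for the 10 genes, the 50 other kinetochore and mitosis genes and all 20098 coding genes, without error bars because each is a share of genes in 1 list. The bars of the 10 genes and of the 50 genes stand above the gray bars for the 4 peak lists, CHR and CCAAT.

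The score of a histone peak is its MACS p-value as minus 10 log10. The value of a FAIRE peak is its deposited height. Where a gene had several promoter peaks in a list, the one nearest the canonical start was used. All 10 genes had an H3K4me3 score of 3100, a value shared by 55.9% of the H3K4me3 list, so the genes were compared by peak width in that list. Because so many H3K4me3 and H3K27Ac peaks share exactly this score, 3100 was not read as an exact p-value. The H3K4me3 widths ran from 2079 bp to 4049 bp with a median of 2899 bp, close to the median of 2925 bp over 13532 coding genes. The H3K27Ac widths ran from 2126 bp to 5742 bp with a median of 3988 bp, compared with 3144 bp over 12758 coding genes. The H3K27Ac scores had a median of 1749, compared with 1254. The FAIRE heights of the 9 genes had a median of 65.8, compared with 65.1 over 7908 coding genes. The median of the genes was therefore near the coding median in H3K4me3 width and FAIRE height. Single genes spread widely around the coding median in each of these measures. H3K4me3 widths lay above those of 12.5% (SPC25) to 84.8% (MAD2L1) of coding genes. FAIRE heights lay above those of 8.86% (NDC80) to 93.2% (SPC24). In H3K27Ac, 6 genes were above the coding median in width and 7 in score. The FAIRE peaks were narrow, with a median width of 652 bp compared with 836.5 bp, and 8 of the 9 were below the coding median. For AURKB this count used only the peak of 494 bp over the start, which directly adjoins a second peak of 867 bp. Its place below the median therefore depends on how the list split this region.

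**Figure D3:**
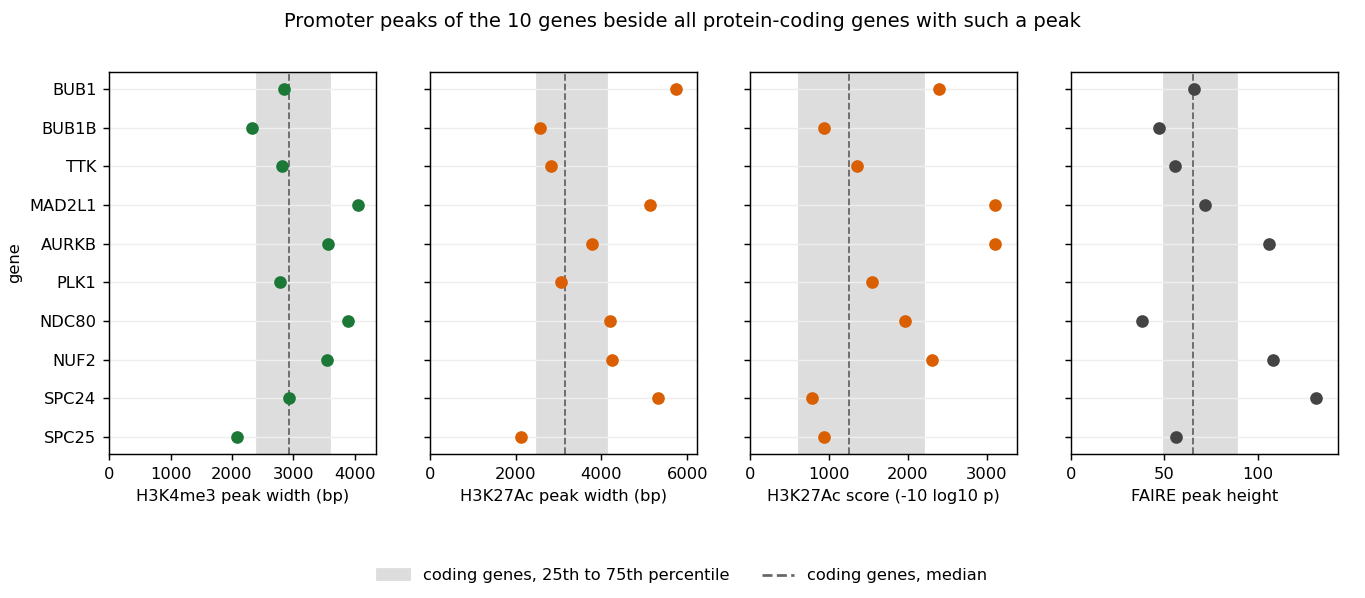
H3K4me3 peak width, H3K27Ac peak width, H3K27Ac score and FAIRE height of the promoter peak of each gene (points), with the interquartile range (gray) and median (dashed) of all coding genes that had such a peak. MAD2L1 and AURKB reach an H3K27Ac score of 3100, and SPC24 has the tallest FAIRE peak at 131.

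Among the checkpoint kinases, BUB1 recruits other checkpoint proteins to the kinetochore. Its start site (chr2, 111435640, minus strand) lay in an H3K4me3 peak of 2858 bp and in an H3K27Ac peak of 5742 bp with a score of 2390. This H3K27Ac peak was the widest of the 10 and wider than that of 89.8% of coding genes, and it extended 2293 bp beyond the H3K4me3 peak into the gene. An H3K4me1 peak with a score of 114 lay from 896 to 3819 bases downstream, mostly within the acetylated part. The FAIRE peak reached from 475 bases upstream to 176 bases downstream, with a height of 65.8. A long non-coding gene (ENSG00000289202) also starts in the BUB1 H3K4me3, H3K27Ac and FAIRE peaks, so these peaks cannot be given to BUB1 alone.

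BUB1B encodes BubR1, a component of the mitotic checkpoint complex. Its promoter was below the coding median in each of these measures, with an H3K4me3 peak of 2329 bp, an H3K27Ac peak of 2579 bp with a score of 930 and a FAIRE height of 47.2. The H3K27Ac score was above that of 37.8% of coding genes and the FAIRE height above that of 20.2%. The H3K4me3 peak began 461 bases upstream of the start, the shortest upstream reach of the 10, and ended 1867 bases downstream. An H3K4me1 peak with a score of 53.5, close to the lowest of the list (50.01), covered the region from 674 to 2714 bases downstream. A second FAIRE peak with a height of 59.1, 56.0 kb downstream, met a late start site of BUB1B and held a start site of PAK6. No H3K4me3 or H3K27Ac peak overlapped it.

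TTK encodes the kinase MPS1, which starts checkpoint signaling. Its H3K4me3 and H3K27Ac peaks had nearly the same bounds, with widths of 2822 and 2835 bp, and the H3K27Ac score was 1360. The FAIRE peak was 644 bp wide with a height of 55.7. TTK had no H3K4me1 promoter peak, and the nearest H3K4me1 peak was 138030 bases away. As in BUB1B, both histone peaks were narrower than the coding median, but the H3K27Ac score of TTK was above it.

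AURKB is the kinase of the chromosomal passenger complex, which corrects faulty attachments. Its promoter had an H3K4me3 peak of 3574 bp and an H3K27Ac peak of 3787 bp with a score of 3100, a value that 9.79% of the H3K27Ac list shared. AURKB had 2 adjoining FAIRE peaks, one over the start with a height of 105 and one from 143 to 1009 bases downstream with a height of 73.9. It had no H3K4me1 promoter peak. AURKB therefore had an open region that ran on into the gene.

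PLK1 controls mitotic entry, the spindle and cytokinesis. It had an H3K4me3 peak of 2789 bp, an H3K27Ac peak of 3051 bp with a score of 1541, and an H3K4me1 peak with a score of 77.4 from 636 to 3894 bases downstream. No FAIRE peak that passed the authors' threshold met any PLK1 start site. The nearest one lay 8242 to 9159 bases upstream with a height of 62.6, inside an H3K27Ac peak with a score of 105 and an H3K4me1 peak with a score of 82.4, at the start of a long non-coding gene (ENSG00000260482). PLK1 was thus the one member without a FAIRE promoter peak, although its histone peaks were close to the coding medians in width and score.

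MAD2L1 encodes MAD2, which captures CDC20. It had the widest H3K4me3 peak of the 10, at 4049 bp, and an H3K27Ac peak of 5139 bp with a score of 3100. The FAIRE peak had a height of 71.4 and covered the start. An H3K4me1 peak with a score of 120 lay 471 to 3515 bases upstream, over the start of the divergent transcript MAD2L1-DT, which also starts inside the H3K4me3, H3K27Ac and FAIRE peaks. MAD2L1 was the only one of the 10 whose H3K4me1 promoter signal lay on the upstream side alone.

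The NDC80 complex is the main microtubule-binding unit of the kinetochore. NDC80 and NUF2 form the end that contacts the microtubule, and SPC24 and SPC25 form the end that is anchored to the chromosome. NDC80 had an H3K4me3 peak of 3898 bp and an H3K27Ac peak of 4189 bp with a score of 1957. Its FAIRE peak had a height of 38.2, the lowest of the 9, above that of 8.86% of coding genes. METTL4 starts inside all of these NDC80 peaks. NDC80 thus paired broad histone peaks with a low FAIRE peak.

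NUF2 had an H3K4me3 peak of 3559 bp and an H3K27Ac peak of 4241 bp with a score of 2309. Its FAIRE peak had a height of 108, above that of 85.6% of coding genes. NUF2 had H3K4me1 peaks on both sides, from 2011 to 208 bases upstream with a score of 82.7 and from 908 to 3752 bases downstream with a score of 73.0. Among the 10 genes this flanking arrangement was seen at NUF2 alone. RGS5 and a long non-coding gene (ENSG00000232995) have start sites within the NUF2 promoter peaks, apart from the downstream H3K4me1 peak.

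SPC24 had an H3K4me3 peak of 2940 bp, and its H3K27Ac peak of 5323 bp reached 3906 bases into the gene. The H3K27Ac score of 784 was the lowest of the 10, while the FAIRE peak was the widest and tallest, 1374 bp with a height of 131, above that of 93.2% of coding genes. SPC25, its direct partner, had the narrowest peaks of both marks, 2079 bp for H3K4me3 and 2126 bp for H3K27Ac, with an H3K27Ac score of 931 and a FAIRE height of 56.3. Neither had an H3K4me1 promoter peak. The members of this heterodimer therefore differed in acetylated width and in FAIRE height, although both had H3K27Ac scores below the coding median.

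Across the 10 genes, the H3K27Ac peak was wider than the H3K4me3 peak in every gene, with a median ratio of 1.10. Among all 12317 coding genes with both peaks, the median ratio was 1.03 and 58.2% had the wider H3K27Ac peak. Most, but not all, of the 50 other kinetochore and mitosis genes also had the wider H3K27Ac peak. Among the 10 genes, the ratio was 2.01 in BUB1 and 1.81 in SPC24 and lay between 1.00 and 1.27 in the other 8. In TTK (2835 and 2822 bp) and SPC25 (2126 and 2079 bp) the widths were nearly equal. Of the 5 genes with an H3K4me1 promoter peak, none had one over the canonical start, compared with 24.8% of the coding genes with such a peak. The H3K4me1 promoter peaks shared 537 bp with the H3K4me3 peak in BUB1, 1194 bp in BUB1B, 1306 bp in PLK1, 1388 bp in MAD2L1 and 2444 bp in NUF2. A FAIRE peak over the canonical start was found in 9 of the 10 genes, compared with 26.0% of all coding genes and 40.9% of those with both promoter marks. In the list of 50 other kinetochore and mitosis genes it was found in 33 (66.0%).

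**Figure D4:**
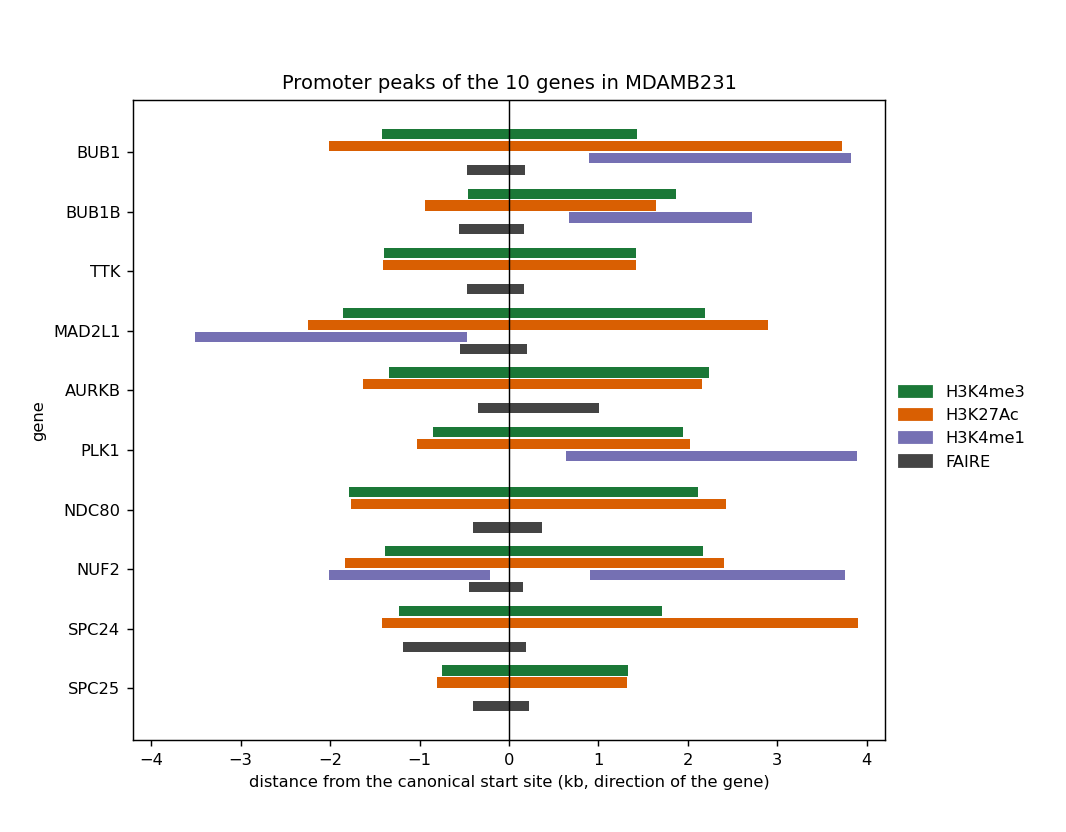
Promoter peaks of the 4 lists around the canonical start site of each gene, in kb in the direction of the gene, without the late BUB1B start site 56.0 kb downstream. H3K4me3 (green) and H3K27Ac (orange) span the start in all 10 genes, FAIRE (dark gray) in 9, and H3K4me1 (purple) lies to the side in 5.

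The surroundings were taken as the gene bounds widened by 50 kb on each side. The 10 windows held 27 H3K4me3, 33 H3K27Ac, 18 H3K4me1 and 40 FAIRE peaks, in all 118. The median was 10 peaks per window, the same as over all coding genes, and 7.68 peaks per 100 kb compared with 7.01. The spread was wide, from 4 peaks around TTK, 5 around SPC25 and 6 around NUF2 to 23 around SPC24 and 25 around AURKB. The AURKB window of 105.9 kb also holds start sites of 7 other coding genes, and none of its histone peaks was distal to all start sites. Of the 118 peaks, 37 lay at the gene's own start sites, 44 at start sites of other genes and 37 were distal, meaning that they touched no annotated start site widened by 1 kb.

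**Figure D5:**
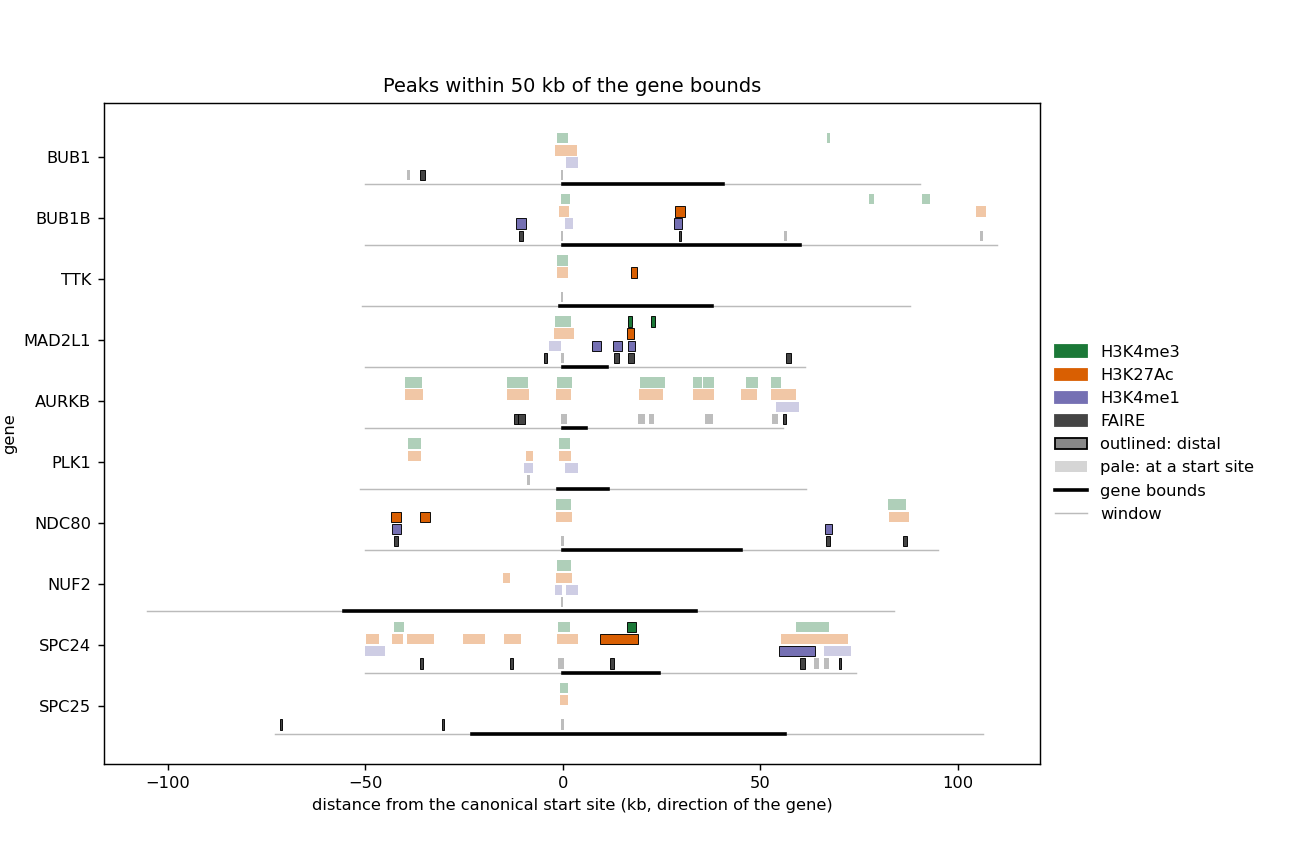
Peaks of the 4 lists within 50 kb of the bounds of each gene, in kb from the canonical start in the direction of the gene, where outlined bars are distal peaks, pale bars lie at a start site, black lines are the gene bounds and gray lines the windows. SPC24, MAD2L1, NDC80 and BUB1B have distal peaks of several lists, and TTK has a single distal H3K27Ac peak.

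The windows held 20 distal FAIRE peaks, found around 7 of the 10 genes, compared with 68.2% of all coding genes and 76.1% of those with H3K4me3 and H3K27Ac promoter peaks. TTK, NUF2 and PLK1 had none. Of the 20, 6 overlapped both H3K27Ac and H3K4me1 peaks, 6 H3K27Ac alone, 3 H3K4me1 alone and 5 neither. Over all 34817 distal FAIRE peaks, 52.3% overlapped both H3K27Ac and H3K4me1, 14.4% H3K27Ac alone, 9.45% H3K4me1 alone and 23.9% neither. Distal FAIRE peaks with both marks were found around BUB1B, SPC24, NDC80, MAD2L1 and AURKB, 5 of 10 genes, compared with 40.6% of all coding genes and 48.1% of those with both promoter marks. The 10 genes were thus near the background in this respect.

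The AP-1 motif was found within 150 bases of the center of 3 of the 20 distal FAIRE peaks around the 10 genes, compared with 44.2% of all distal FAIRE peaks. Among distal FAIRE peaks that overlapped H3K27Ac, the motif was found in 2 of 12 around these genes and in 46.2% of all. The CHR was found in 7 of the 20, compared with 30.1%, and CCAAT in 8, compared with 37.1%. At these distal sites the CHR count was close to the background, unlike at the promoters.

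SPC24 had the richest surroundings among the kinetochore subunits, with 8 H3K27Ac and 8 FAIRE peaks, of which 5 FAIRE peaks were distal. Of these 5, 1 downstream and 2 upstream lay in H3K27Ac peaks without H3K4me1, and the other 2 overlapped both marks. A distal H3K27Ac peak of 9.64 kb with a score of 3100 began 9.31 kb downstream of the start, in the part of SPC24 beyond the canonical transcript, and held a FAIRE peak with a height of 79.3 and an H3K4me3 peak with a score of 93.2. Upstream, a FAIRE peak at 12.7 kb with a height of 159 lay in an intron of KANK2 inside an H3K27Ac peak with a score of 617. A further FAIRE peak in an intron of KANK2, at 35.3 kb, had a height of 105 and lay in an H3K27Ac peak with a score of 107. Both of these H3K27Ac peaks also met a start site of KANK2.

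MAD2L1, a gene of 11.2 kb, had 4 distal FAIRE peaks. The one 16.5 kb downstream had a height of 56.3 and overlapped peaks of all 3 histone marks, with scores of 340 for H3K4me3, 165 for H3K27Ac and 51.0 for H3K4me1. The one 13.1 kb downstream had a height of 67.8 and overlapped an H3K4me1 peak with a score of 75.5. The other 2, at 56.4 kb downstream and 4.05 kb upstream, overlapped no histone peak. NDC80 had a site 41.7 kb upstream in intergenic sequence with H3K27Ac (score 421), H3K4me1 (score 120) and a FAIRE height of 24.3. The FAIRE heights around NDC80 were low throughout, from 24.3 to 38.2.

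BUB1B had 5 distal peaks in its window, 1 of H3K27Ac, 2 of H3K4me1 and 2 of FAIRE. TTK, BUB1, SPC25 and AURKB had fewer, and NUF2 and PLK1 had none. TTK had a single distal H3K27Ac peak in an intron, 17.1 kb downstream, with a score of 161 and no other list. BUB1 had 1 distal FAIRE peak, 35.0 kb upstream, with a height of 44.2 and no histone peak. Around SPC25, 2 FAIRE peaks with heights of 33.3 and 39.7 lay in ABCB11 and overlapped no histone peak. The distal FAIRE peaks around AURKB were at 9.48 and 11.3 kb upstream in LINC00324, where they overlapped H3K4me3 and H3K27Ac peaks, and at 55.7 kb downstream in PER1, where the peak overlapped H3K27Ac and H3K4me1 peaks.

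The coding genes closest to the median promoter profile of the 10, over H3K4me3, H3K27Ac and H3K4me1 width and FAIRE height on a log2 scale, were C2orf69, MTA3, RBL2, APBA2 and MIX23. A list without a promoter peak counted as 0, and each measure was divided by its SD over coding genes. On that scale their distances ran from 1.02 to 1.06, and they had H3K4me3 peaks of 2516 to 3289 bp, H3K27Ac peaks of 2208 to 3160 bp and FAIRE heights of 47.5 to 76.8. Their H3K4me1 peaks of 1216 to 1417 bp were narrower than that of any of the 5 members with one, since the other 5 members counted as 0. Their H3K27Ac peaks were also all narrower than the median of 3988 bp of the 10 genes. The ranking therefore does not show that these genes resemble the members. The label of the cells was compared with marker promoters. VIM, ZEB1, AXL, CD44, CAV1 and FOSL1, the markers of mesenchymal-like cells, had H3K4me3, H3K27Ac and FAIRE promoter peaks in 6 of 6. ESR1 and PGR, the estrogen and progesterone receptors, had H3K4me3 but neither H3K27Ac nor FAIRE promoter peaks. Over the 8 luminal and epithelial markers, H3K4me3 was found at 7, H3K27Ac at 5 (GATA3, CDH1, EPCAM, KRT8 and KRT18) and FAIRE at 5. Over all coding genes the shares were 67.3%, 63.5% and 39.3%. The H3K27Ac score was 3129 at KRT8 and from 383 to 538 at the other 4, below the coding lower quartile of 623.1. PTPRC, ALB and SOX10, markers of other cell types, had no promoter peak in any list, and PECAM1 was not matched.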

How the data were processed

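The authors mapped reads to GRCh37 by BWA, filtered them for duplicates and mapping quality. Each list used here pools both samples of its assay, which the authors had also examined one by one. MACS gave the histone peaks and FindPeaks the FAIRE peaks, both with input as control. The deposited histone scores are p-values as −log10 multiplied by 10, and the deposited FAIRE value is a peak height, a signal that the authors did not describe as scaled to depth. Read depth is not given in the files used here, so peaks of different lists were not compared by value. List starts were read as counted from 0 and are printed as counted from 1.

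Gene bounds, start sites and canonical transcripts came from GENCODE release 44 on GRCh37. Overlaps of at least 1 base were counted in Python 3.11.15 with numpy 2.4.6, and the counting was tested on simulated data against bedtools 2.31.1. Figures were drawn with matplotlib 3.10.9. Sequences were read from GRCh37, of which no peak on these chromosomes passed the end. Motifs were searched as exact letters on both strands, and overlapping matches were all counted.

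The members and lists were chosen with earlier results of these data known. Genes named beside the members were all those lacking an H3K4me3 or H3K27Ac promoter peak in the list of 50 (0 genes), 5 examples from it, neighbors that start in a member's promoter peak or hold a distal peak in an intron, and the 5 nearest profiles. LINC00324, PER1 and the non-coding gene near PLK1 were named after their values were seen.

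The alternatives tried were other promoter widths, coding or canonical transcripts, a start inside the peak, stricter peaks, windows of 20 and 100 kb, other definitions of distal, and another motif window. RefSeq promoters (GRCh38.p14), which matched 9 members, were added after seeing the data. TTK was not matched there.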

Additional observations from a re-analysis of the deposited data

How the results depend on the processing

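Of 54 values under the alternatives, 44 were within 1.5 times the value reported. These include counts that stayed at 0 or at 10, so the total says little about stability. Of the 12 values for peaks in windows, 7 moved further than this, as did 3 of the 24 for promoter peaks. With MACS p-values at or under 1e-10, 2 of the 10 genes had an H3K4me1 promoter peak (11.2% of all coding genes) and the windows held 5 H3K4me1 peaks. With the start site inside the peak, 2 genes had an H3K4me1 promoter peak (13.6%). When FAIRE peaks below the list's median height were dropped, 5 genes had a FAIRE promoter peak (24.4%) and the windows held 22 FAIRE peaks. With bounds widened by 20 kb, the windows held 16 H3K4me3, 20 H3K27Ac and 24 FAIRE peaks, and with 100 kb they held 54 H3K27Ac and 61 FAIRE peaks, as the size of the window implies. H3K4me3 and H3K27Ac promoter peaks were found at 10 of 10 genes under every alternative tried. The CHR was found in 9 of 10 promoters from 100 bases before to 100 after the start (6.80% of all coding promoters) and in 7 of 9 RefSeq promoters (13.4%), which were added once the data had been seen.

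No paired analysis was possible because the 2 samples of each assay entered a single list, and the lists used here hold no values by sample. The lists give neither depth nor values outside peaks, and the absence of a peak, as for FAIRE at PLK1, says only that none passed the authors' threshold. The H3K4me1 and FAIRE counts rest in part on weak peaks. A peak near 2 genes cannot be assigned to either, and peaks do not show transcription.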
